A study of Rattus norvegicus with 4 samples.

Results

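The miR-34 family consists of miR-34a, made from a gene of its own, and miR-34b and miR-34c, made together from a 2-miRNA cluster. Its 3 members, listed as rno-miR-34a, rno-miR-34b and rno-miR-34c, were taken by name from the 350 rat microRNAs (miRNAs) measured on each array, without the forms whose names end in a star. The measured value is a miRNA's total fluorescence after background subtraction, in scanner units, with the scanner software's own error and a flag that says whether the miRNA was detected. Samples came from the gracilis, a muscle of the inner thigh, in Sprague-Dawley rats, all male, and each was hybridised in 1 colour (Cy3). The sham group holds 2 muscles of sham-operated animals, and the ischemia-reperfusion group holds 2 samples labelled as muscle taken after 4 h without blood flow and subsequent reperfusion. Reperfusion lasted 4 h by the sample labels but 24 h by the design text of the series, and the sources used here do not resolve this. The age of the animals is not given in the sources used here.

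p53 is a transcription factor that is activated by DNA damage and other cell stress, and the genes of miR-34a and of the miR-34b/c cluster are among its direct targets in human and mouse cells. The mature miRNAs lower the output of messenger RNAs that promote cell cycle entry and survival, such as those of Cdk6, Met, Bcl2 and Sirt1. In the mouse miR-34a is found in most tissues, whereas miR-34b and miR-34c are highest in multiciliated epithelium and testis, where they are accompanied by the miR-449 family, which has the same seed. The seed is the stretch at the 5′ end by which a miRNA pairs with its targets.

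The mature sequences are shown because the family is defined by them. They are those of RefSeq on build GRCr8, in which all 3 members were found. The older array names miR-34a, miR-34b and miR-34c were taken as the 5′ arms of the hairpins. Capitals mark the seed, bases 2 to 8 counted from the 5′ end.
miR-34a: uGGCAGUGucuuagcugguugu
miR-34b: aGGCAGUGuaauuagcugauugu
miR-34c: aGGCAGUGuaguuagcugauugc
miR-449a: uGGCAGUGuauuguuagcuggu

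All of these miRNAs carry the seed GGCAGUG, and so does miR-449c, which is not among the miRNAs of the array. They are 5 of the 693 mature miRNA names in the RefSeq table, and 4 of them are on the array. miR-34a shares a run of 8 bases with miR-34b and with miR-34c, from base 2 to base 9, and then differs from them. miR-34b and miR-34c are identical at 21 of 23 bases and differ by the substitutions A11G and U23C (base of miR-34b, position, base of miR-34c). A star form, miR-34c*, is the other arm of the miR-34c hairpin and has another seed:
miR-34c*: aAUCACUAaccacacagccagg

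On GRCr8 the miR-34a hairpin lies at chr5:165815952-165816053 on the plus strand, within the long non-coding RNA gene LOC103692514. The miR-34c hairpin is at chr8:60306091-60306167 and the miR-34b hairpin at chr8:60306609-60306692, both on the minus strand and 441 bases apart. The first lies wholly inside the bounds of the protein-coding gene Hoatz and the second overlaps its end by 79 of 84 bases. miR-449a comes from chr2:46403910-46404000 on the plus strand, within the long non-coding RNA gene LOC134485839. These bounds are those of whole genes, and exons were not resolved.

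The 4 arrays differed in brightness and content. They detected between 121 and 187 of the 350 miRNAs, the fewest on ischemia-reperfusion replicate 2, whose median signal over the 78 miRNAs detected on every array was 34.8 units against 223 to 558 units on the other 3. Skeletal muscle markers, namely miR-1, miR-133a, miR-133b, miR-206 and miR-499, were all detected on those 3 arrays, with summed signals of 211933 and 113072 units in the sham group and 90702 units on ischemia-reperfusion replicate 1. In these sums and those below, negative signals count as 0. On ischemia-reperfusion replicate 2 none of the 5 was detected and the sum was 11.6 units, so that sample goes against its label as muscle. In the same sample 6 of 10 epithelial marker miRNAs were detected, with a summed signal of 596 units, against 0 of 10 on each sham array, with sums of 1.58 and 17.1 units. On ischemia-reperfusion replicate 1 the sum was 351 units and 2 of 10 were detected, miR-200c and miR-205, both with signals whose written form and scanner error stand apart from all others of that array. Results are therefore given with and without ischemia-reperfusion replicate 2. The other 3 arrays were not all alike. Over the 78 miRNAs the unscaled log2 ratio of sham replicate 2 to sham replicate 1 ran from −4.47 to 5.39. That of ischemia-reperfusion replicate 1 to sham replicate 2 ran from −0.96 to 0.67. Leukocyte markers summed to 1011 units in sham replicate 1, 4970 units in sham replicate 2 and 4127 units in ischemia-reperfusion replicate 1. Of these, miR-150 and miR-342-3p were instead highest in sham replicate 1.

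miR-34a was detected in all 4 samples, which was the case for 22.3% of the miRNAs on the array. Its signal was 325 ± 24.6 units (scanner error) in sham replicate 1 and 117 ± 8.82 units in sham replicate 2. In ischemia-reperfusion replicate 1 it was 93.5 ± 7.20 units and in replicate 2 it was 57.2 ± 4.81 units. The scanner error was between 7.55% and 8.41% of the signal on every array, so each of these signals stood 11.9 to 13.3 errors above 0. As deposited, both ischemia-reperfusion signals were thus below both sham signals, at 75.4 ± 25.7 units against 221 ± 147 units (mean ± SD, n = 2 each). The same order was seen for 76.7% of the 159 miRNAs tested, and the median signal of the arrays had that order too. In bulk tissue, fewer cells that hold a miRNA and less of it per cell cannot be told apart.

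miR-34b and miR-34c, the members of the cluster, were detected in none of the 4 samples. The sham signals of miR-34b were −5.65 ± 6.20 and 3.501 ± 2.35 units (scanner error), and its ischemia-reperfusion signals were 0.391 ± 2.46 and 1.40 ± 2.52 units. The sham signals of miR-34c were −6.54 ± 6.20 and 1.28 ± 2.33 units, and its ischemia-reperfusion signals were −1.005 ± 2.46 and 2.15 ± 2.53 units. The highest of these 8 signals was 1.49 errors above 0, the value of miR-34b in sham replicate 2, and no difference between the groups was detectable for either miRNA. In all, 35.4% of the miRNAs on the array were detected in no sample. The lowest detected signals were 8.06, 1.84, 1.92 and 2.06 units in the order sham replicates 1 and 2, ischemia-reperfusion replicates 1 and 2. Some undetected miRNAs had signals of up to 23.1, 9.11, 9.37 and 9.15 units on the same arrays, so an amount of miR-34b or miR-34c that gives a signal of that size could have been missed.

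The other arm of the miR-34c hairpin, miR-34c*, was not detected in any sample either, and its signals ran from −15.8 units in sham replicate 1 to −0.498 units in ischemia-reperfusion replicate 2. miR-449a, which is made from another locus and carries the family seed, was detected in sham replicate 2 at 17.0 ± 2.73 units and in ischemia-reperfusion replicate 1 at 15.0 ± 2.81 units (scanner error). In sham replicate 1 its signal was −7.55 ± 6.20 units and in ischemia-reperfusion replicate 2 it was 0.138 ± 2.52 units, both below detection. The 2 detections thus lie in different groups, and miR-449a was not tested because neither group detected it on both arrays. Of all miRNAs on the array, 19 (5.43%) were detected in exactly these 2 samples, miR-449a among them. When a signal above 3 times its scanner error was asked for in place of the detection flag, miR-34a passed on 4 arrays, miR-449a on the same number as before, 2, and miR-34b, miR-34c and miR-34c* on 0.

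**Figure D1:**
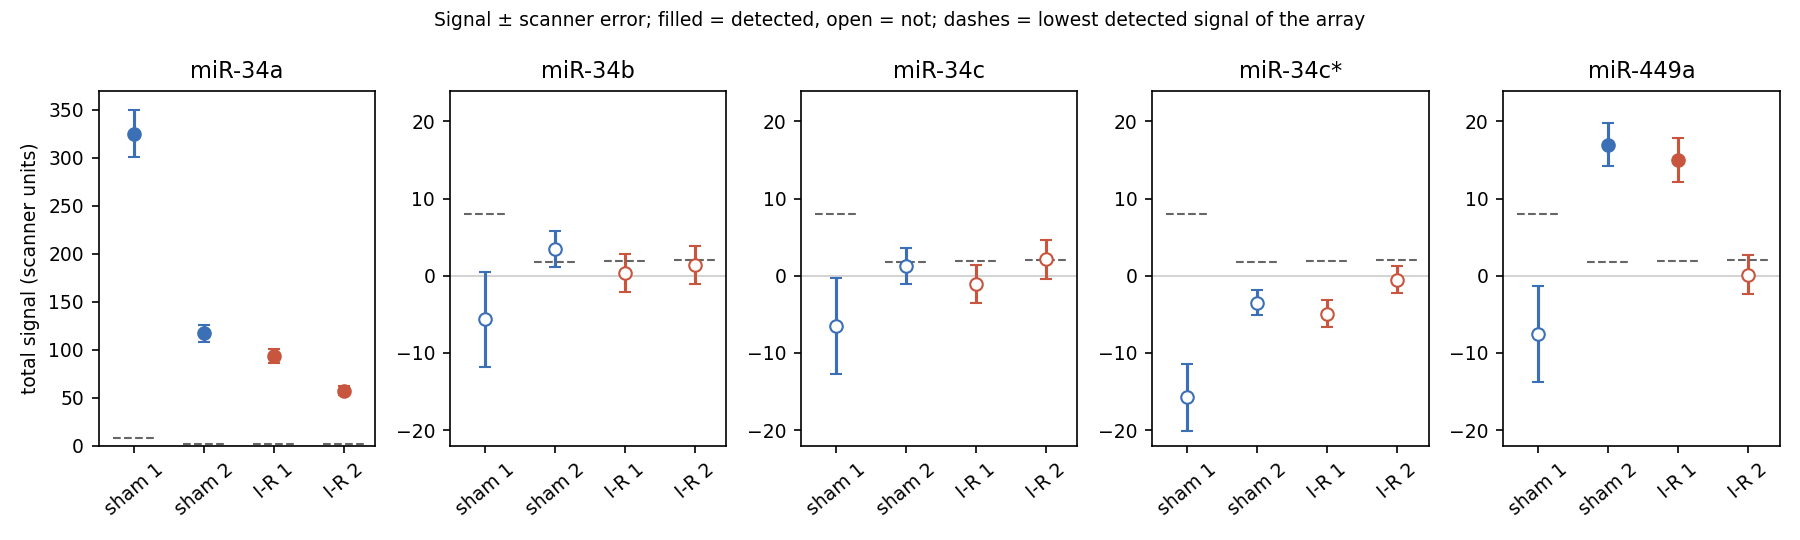
Total signal in scanner units (y axis, a wider scale for miR-34a) of the family, of the other arm of miR-34c and of miR-449a in each sample (x axis; I-R is ischemia-reperfusion), with bars for the scanner error, filled points for detected signals and dashes at the lowest detected signal of each array. miR-34a lies far above the dashes in all samples, at 325 units in sham replicate 1 and 57.2 units in ischemia-reperfusion replicate 2. The undetected miR-34b, miR-34c and miR-34c* stay near or below 0 units. Even so, miR-34b in sham replicate 2 (3.50 units) and miR-34c in ischemia-reperfusion replicate 2 (2.15 units) lie above the dashes of their arrays.

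To compare samples, the signals of an array were scaled to the 75th percentile of those 78 miRNAs that every array detected, and put on a log2 scale. In this way a level is relative to the bright miRNAs of the same sample. The scaled level of miR-34a was 0.0961 ± 0.00727 (scanner error) and 0.0998 ± 0.00753 of that percentile in the sham muscles. It was 0.0940 ± 0.00723 in ischemia-reperfusion replicate 1 and 0.622 ± 0.0523 in replicate 2. The first 3 levels did not differ beyond the scanner error, and the fourth was 6.23 to 6.61 times as high as each of them. On the log2 scale the sham mean was −3.35 ± 0.0391 (SD, n = 2) and the ischemia-reperfusion mean −2.05 ± 1.93 (SD, n = 2), and the groups overlapped. Groups that did not overlap were seen for 11.9% of the tested miRNAs upward and for 13.2% downward.

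Whether miR-34a differs between the samples labelled ischemia-reperfusion and sham was tested with limma over the 159 miRNAs for which the sham group, the ischemia-reperfusion group or both had a detected signal in each replicate. miR-34a differed by 1.30 ± 1.24 on the log2 scale (SE, n = 2 per group), with a limma p of 0.341 and an adjusted p of 0.817, and did not pass. limma called 0% of the tested miRNAs at an adjusted p under 0.05 and 1.26% at an unadjusted p under 0.05, which are miR-205 and miR-200c. The positive difference rested on ischemia-reperfusion replicate 2: without that sample it was −0.0594 (adjusted p = 0.990 by limma), and without ischemia-reperfusion replicate 1 it was 2.67 (adjusted p = 0.128 by limma). Without the latter, and with the scaling and the filter taken anew from the remaining 3 arrays, a choice made after seeing the data, miR-34a was called higher at 2.63 (adjusted p = 0.0451 by limma), as 1 of 36 miRNAs called among 187 tested. That call compares a single ischemia-reperfusion sample, the one without muscle miRNAs, with both sham muscles.

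The direction of the difference depended on how the arrays were scaled. Without scaling it was −1.41, and with the 75th percentile of all miRNAs, the median of the detected miRNAs or quantile normalization it was 0.53, 0.75 and 0.84. The median difference of all tested miRNAs moved with it, from 0.45 in the main scaling to −2.18 without scaling, and 61.6% and 9.43% of all differences were positive in these 2 settings. Set against the median of the tested miRNAs, miR-34a was higher by 0.85 in the main scaling, by 0.76 without scaling and by 1.19 with quantile normalization, and without ischemia-reperfusion replicate 2 it was at −0.12.

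**Figure D2:**
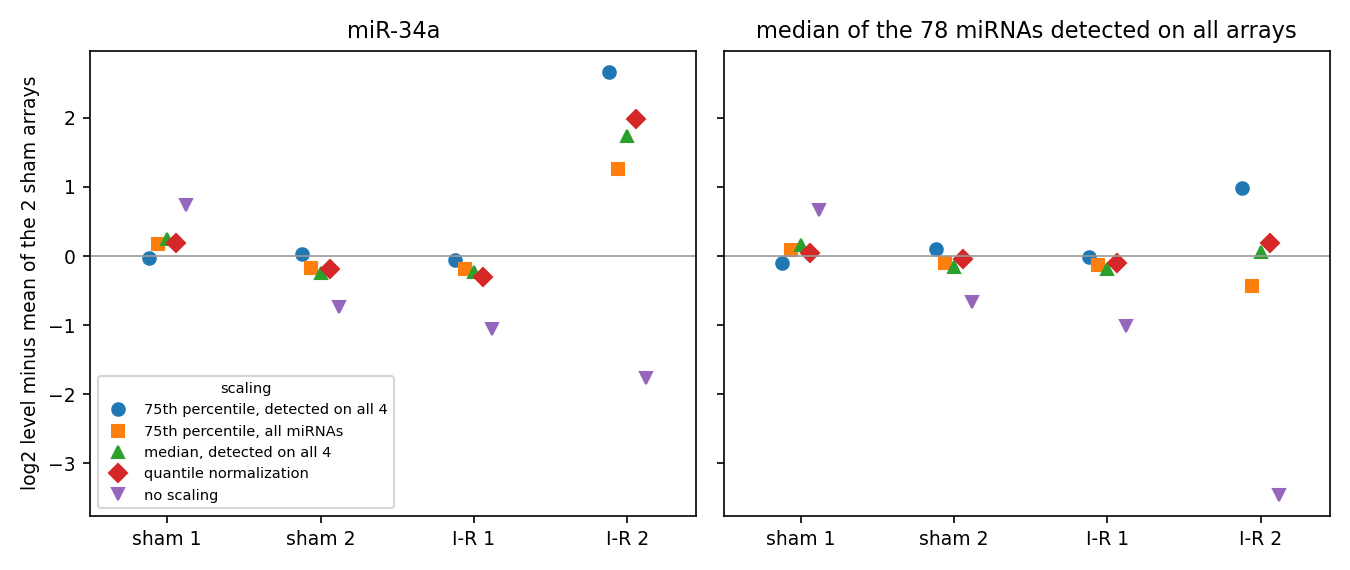
Log2 level of miR-34a (left) and median of the 78 miRNAs detected on all arrays (right), each minus its mean over the 2 sham arrays (y axis), by sample (x axis) and under 5 scalings (symbols). On ischemia-reperfusion replicate 2 miR-34a is above the median of the other miRNAs under every scaling shown, at −1.77 against −3.45 without scaling and at 2.67 against 0.98 with the main one.

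A ratio of 2 arrays for the same miRNA, set against the median ratio of the other miRNAs, shows its place without any scaling. Between the 2 sham muscles miR-34a was 0.15 below the median log2 ratio of the 78 miRNAs detected on all arrays, and between sham replicate 2 and ischemia-reperfusion replicate 1 it was 0.0519 below it. From sham replicate 1, sham replicate 2 and ischemia-reperfusion replicate 1 to ischemia-reperfusion replicate 2, miR-34a was 1.46, 1.69 and 1.71 above the median. It then ranked at place 15, 11 and 12 of 78 from the highest ratio. These 3 ratios share the same sample, so they are not independent, and they describe that sample alone. miR-34a was thus near the median ratio among the 3 samples with muscle miRNAs and above it in the one without them, where 6 of 10 epithelial markers were detected. The part of that change of content in the miR-34a level was not tested.

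**Figure D3:**
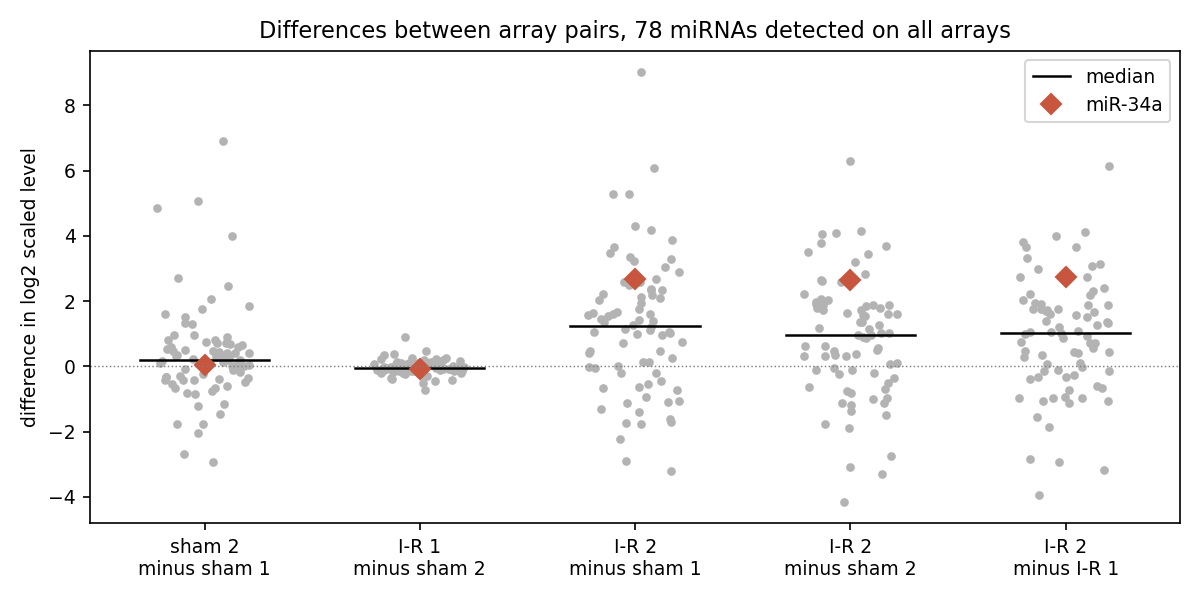
Difference in log2 scaled level between pairs of arrays (y axis; pairs on the x axis) for the 78 miRNAs detected on all arrays, with grey points for single miRNAs, a line for their median and a diamond for miR-34a. The diamond is close to the median between the sham arrays and between ischemia-reperfusion replicate 1 and sham replicate 2, and is 1.46 to 1.71 above it wherever ischemia-reperfusion replicate 2 enters.

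A comparison of miR-34a with the miR-34b/c cluster had been planned as the log2 ratio of miR-34a to miR-34c within each array. With miR-34c below detection everywhere, its value is noise or the floor set for low signals, and the ratio only bounds. The ratio differed between the groups by −0.64, and the exact permutation test, two-sided, gave p = 0.333, the smallest that 2 samples against 2 allow. It carries no measured change of miR-34c. What the arrays show of the contrast is that miR-34a was detected in 4 of 4 samples and each member of the cluster in 0 of 4.

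The miRNAs whose levels over the 4 arrays were closest in pattern to miR-34a were miR-214, miR-338, miR-181b, miR-100 and miR-337. Likeness was the root mean square difference between log2 levels after each miRNA's own mean was removed, over 4 arrays, among the 77 other miRNAs detected on all of them. It was 0.23 for miR-214, 0.24 for miR-338 and miR-181b, 0.26 for miR-100 and 0.27 for miR-337, against a median of 0.94 over all 77. All 5 had their highest scaled level on ischemia-reperfusion replicate 2, as miR-34a did. This follows from the choice by likeness and is no separate result. Above replicate 1 they stood by 2.19 for miR-214, 3.31 for miR-338, 2.40 for miR-181b, 2.73 for miR-100 and 2.23 for miR-337. miR-34a was higher by 2.73, and the median difference of the 78 miRNAs detected on all arrays was 1.01. miR-214 is transcribed in mesenchymal cells such as fibroblasts. In sham muscle its signal was 234 and 99.98 units, and after ischemia-reperfusion it was 77.3 and 32.6 units. None of the 5 passed the limma test, each with an adjusted p of 0.817.

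**Figure D4:**
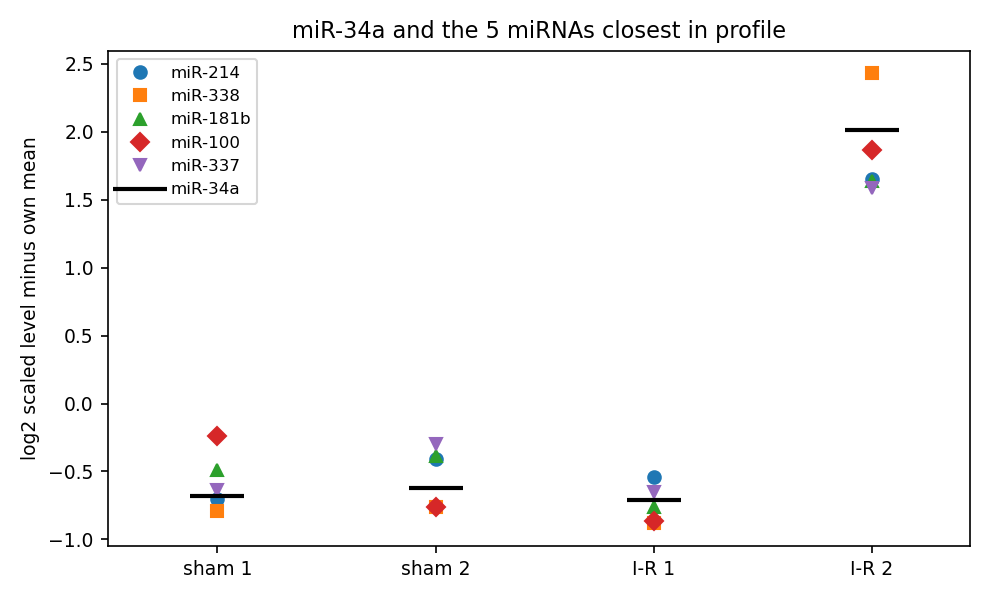
Log2 scaled level minus each miRNA's own mean over the arrays (y axis) by sample (x axis) for miR-34a (bars) and the 5 miRNAs closest to it in profile (symbols). All 6 are low in both sham samples and in ischemia-reperfusion replicate 1 and high in ischemia-reperfusion replicate 2, which follows from the choice by likeness.

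Other miRNAs that p53 is known to raise, by transcription or by processing of their precursors in human cells, gave no call. Of 10 such miRNAs, all on the array, 6 could be tested and 0 passed, with 4 positive and 2 negative log2 differences and a median of 0.36, against a median of 0.45 over all 159 tested, of which 61.6% were positive. Without ischemia-reperfusion replicate 2 the counts were 5 and 1 and the median 0.21, against 0.0561 over all tested. Both counts of positive differences include miR-200c. It was tested only because both ischemia-reperfusion samples detected it, so its positive sign came with the filter. Without replicate 2 its difference rests on the signal of replicate 1 whose written form and scanner error stand apart. miR-107, which lies in an intron of a pantothenate kinase gene, had signals of 630 and 367 units in the sham samples, then 290 and 35.8 units with ischemia-reperfusion, and a scaled log2 difference of 0.48 ± 0.93 (SE). miR-22 was lower in units too, from 20827 and 9676 units in the sham samples to 6109 and 297 units. Its scaled log2 difference was negative, at −0.68 ± 0.94 (SE). The smooth muscle miRNAs miR-143 and miR-145, whose processing p53 is known to promote, had differences of 0.24 ± 0.90 (SE) and 0.94. The latter rests in part on an undetected signal, as ischemia-reperfusion replicate 2 did not detect miR-145 (8.14 ± 2.60 units, scanner error). miR-16, also in that group, differed by −0.35 ± 0.96 (SE).

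The rest of this list are p53 targets known from epithelium and gut. miR-192 was detected in sham replicate 1 alone, at 27.2 ± 6.54 units (scanner error). miR-194 and miR-215 were detected in no sample, with highest signals of 7.90 and 1.83 units. miR-141, an epithelial miRNA, was detected in ischemia-reperfusion replicate 2 alone, at 41.0 ± 3.98 units, and stood between −12.0 and 4.33 units elsewhere. miR-200c, which in human cells comes from the same cluster as miR-141, reached 122 and 159 units in ischemia-reperfusion replicates 1 and 2, and was below detection in sham muscle at −6.81 and 4.13 units. Its scanner error in ischemia-reperfusion replicate 1 was 2.02% of the signal, whereas the errors of other miRNAs above 30 units on that array, miR-205 aside, were 6.02% to 13.0%. miR-141 and miR-200c also belong to the epithelial markers, so they are not separate evidence on p53. With miR-21, miR-200c and miR-205 left out, the list held 3 positive and 2 negative differences and a median of 0.26, and miR-34a differed by 1.32 (adjusted p = 0.804 by limma).

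miRNAs that act on p53 or on its regulators gave no call either. Of 8 listed, 7 were on the array and all 7 were detected on every array. None passed, 5 differences were positive and 2 negative, and the median was 0.10. Over all 159 tested miRNAs 61.6% of differences were positive and the median was 0.45. Without ischemia-reperfusion replicate 2 the counts were 4 and 3 and the median 0.10, against 0.0561 over all tested. miR-125b-5p, which represses p53 itself in human and zebrafish, had 3099 and 845 units in the sham samples, 706 and 194 units with ischemia-reperfusion and a scaled log2 difference of 0.59 ± 1.02 (SE). Its relative miR-125a-5p had the highest difference of the list, 1.79 ± 1.56 (SE), from 140 and 31.8 units in the sham samples to 28.9 and 42.8 units with ischemia-reperfusion. Against the sham mean it was at −0.21 in ischemia-reperfusion replicate 1 and at 3.79 in replicate 2. The miR-29 family, whose members raise p53 activity in human cells by lowering p85α and Cdc42, was at −0.0261 for miR-29a, 0.0124 for miR-29b and −0.85 for miR-29c. miR-25 was at 0.54 ± 0.92 (SE) and miR-30d at 0.10 ± 0.96 (SE).

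**Figure D5:**
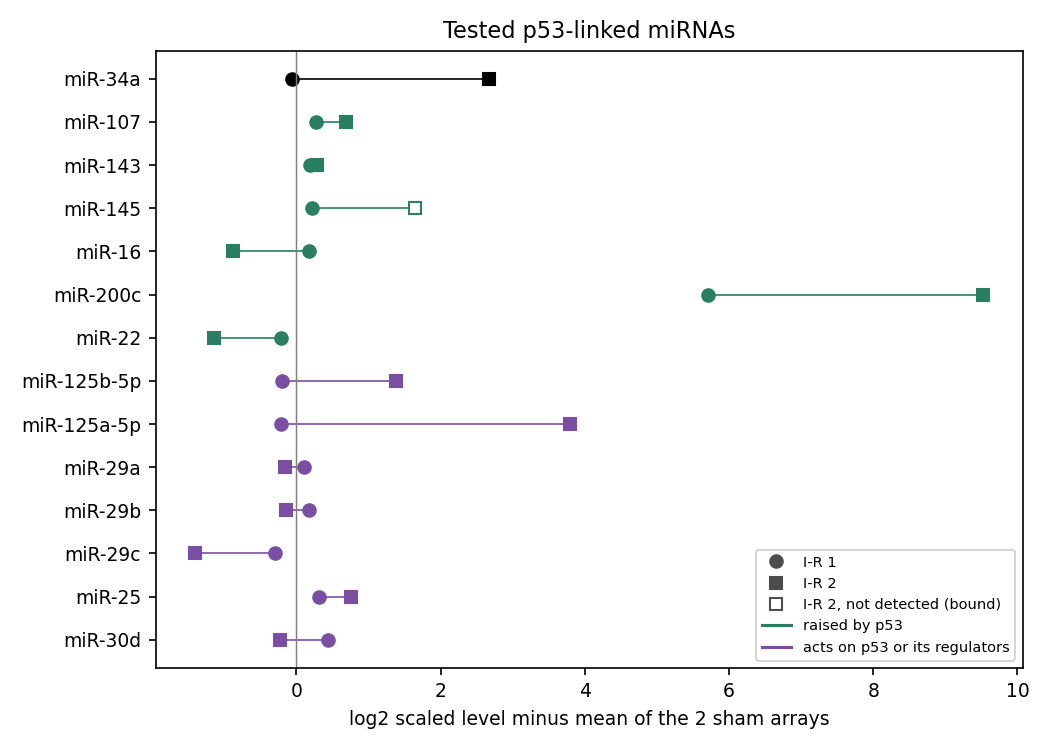
Log2 scaled level minus the mean of the 2 sham arrays (x axis) for miR-34a and the tested p53-linked miRNAs (y axis), with circles for ischemia-reperfusion replicate 1, squares for replicate 2 and an open square where that replicate did not detect the miRNA. The circles of all but miR-200c, whose sham level is below detection, lie between −0.30 and 0.43, whereas the squares spread from −1.40 for miR-29c to 3.79 for miR-125a-5p and 9.52 for miR-200c.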

How the data were processed

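Per the labels' protocols, Cy3 was the label of the total RNA of 4 samples labelled as rat gracilis muscle. The submitters' processing notes name Agilent Feature Extraction, version 9.5.3, as the scanner software. The deposited intensities are, per the file headers, each miRNA's total signal and the error of it, beside a detection flag of the same scanner files, coded 0 or 1. They are linear, background-subtracted and not scaled between arrays. The deposited value table held the same signals (0 of 1400 differed). No source used here gives the array design, slide or scan date.

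Groups came from the titles, and the samples are biological replicates according to the design text. 22 control features were left out. The floor for low scaled signals was the lowest value with a detection flag on any array (0.00157, log2 −9.32). Tests used limma (version 3.58.1, lmFit and eBayes, under R version 4.3.3) and were two-sided at a threshold of 0.05 after Benjamini-Hochberg adjustment over 159 miRNAs. They were also run on simulated data with equal noise in both groups. That does not show how they behave when a single array stands apart, as ischemia-reperfusion replicate 2 does here. The number of arrays limits the precision. Members, lists and the rule for named miRNAs (the family, its other arms, miRNAs of the same seed, the 5 closest profiles and 2 p53 lists) were chosen with earlier results of these data known. Alternatives were other scalings, filters, floors and fits, each array left out in turn, and a block for the replicate number.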

Additional observations from a re-analysis of the deposited data

How the results depend on the processing

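For miR-34a the log2 difference was −1.41 without scaling (adjusted p = 0.603 by limma) and 0.53 to 1.32 under the other alternatives that kept all 4 arrays, and none of these called it. Leaving out 1 array gave −0.0594 to 2.67, and −0.072 to 2.63 with scaling and filter taken anew, an alternative added after seeing the data. The lone array of a group is then assumed to vary like the other group. The count of called miRNAs was 0 except for 2 without scaling and, without ischemia-reperfusion replicate 1, 11 (2 higher and 9 lower) or 36 with scaling and filter taken anew. The within-array ratio of miR-34a to miR-34c turned to 0.26 with quantile normalization (exact permutation p = 1). Without a filter miR-34b and miR-34c also entered the fit, but their differences are not given, because both groups were below detection. The same replicate numbers were not taken as pairs. Deviations of same-numbered samples had an r of 0.0973 over 159 miRNAs, which with 2 arrays per group cannot show whether samples were paired. With the replicate block the difference of miR-34a stayed at 1.30 (adjusted p = 0.863 by limma) and 0 miRNAs were called. The medians of both p53 lists moved with that of all tested miRNAs. With the percentile of all miRNAs they were −0.41 (raised by p53) and −0.66 (acting on p53) against −0.31 for all, and without scaling −2.36 and −2.61 against −2.18. Slide could not be used as a block and background correction could not be varied, since only total signals are at hand. Signal over background limits miR-34b, miR-34c and miR-449a, and the low brightness of ischemia-reperfusion replicate 2 limits all.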

Other observations

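Signals of 3 miRNAs stood apart from the rest in their scanner error or in how they were written, and the signals of miR-34a did not. Those of miR-34b and miR-34c did not stand apart in how they were written. Their errors were not compared, as only signals above 30 units were. On ischemia-reperfusion replicate 1 the signals of miR-200c (122.22711 units) and miR-205 (224.81378 units) were written with 8 significant digits, and the other signals of the 350 miRNAs on all 4 arrays with at most 6. Their scanner errors were 2.47 and 2.50 units, 2.02% and 1.11% of the signal. Among the 116 other miRNAs above 30 units on that array the error was 6.02% to 13.0% of the signal, with a median of 7.84%. On sham replicate 1 miR-21 had a signal of 276 units with an error of 212 units, or 76.9%, where the 137 others above 30 units ran from 5.92% to 20.4%. For miR-34a the error was 7.55% to 8.41% on the 4 arrays. miR-205 and miR-200c were the 2 miRNAs with an unadjusted limma p under 0.05 in the comparison of the groups.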
